A study of Mus musculus with 14 samples.

Results

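Genes of class I antigen presentation and Cd74 were measured in mouse MLL-AF9-Cas9+ leukemia cells: the class I heavy chain genes H2-D1, H2-K1 and H2-T23, B2m, Tap1, Tap2, Tapbp, Erap1, Nlrc5, and Cd74. They were chosen by symbol as the class I presentation genes with their transactivator and the invariant chain, not by a threshold on their values, and make up 10 of the 22155 genes counted. Both groups came from lineage-depleted mouse bone marrow cells that were transformed with retroviral MLL-AF9, passed through irradiated mice, grown in stem cell factor, IL-3 and IL-6 and given Cas9 by lentivirus. They then received a lentiviral vector with a control guide (sgCtrl) or a guide against Sgf29 (sgSgf29), a chromatin reader subunit of the SAGA complex, and 3 days of puromycin at 2 μg/ml. Messenger RNA was sequenced in 3 libraries of each group, and the chromatin samples among the 14 of the series were not analysed here. The labels do not say whether the numbered libraries are separate cultures or different guide sequences, and p-values here cover only the spread among these libraries, which may be technical.

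Class I molecules display peptides from inside the cell to CD8 T cells. Peptides cut by the proteasome are carried into the endoplasmic reticulum by the TAP1 and TAP2 transporter, trimmed by ERAP1, and loaded with the help of tapasin, the product of Tapbp, onto a heavy chain paired with beta 2-microglobulin, the product of B2m. H2-K1 and H2-D1 encode the classical heavy chains K and D, and H2-T23 encodes Qa-1, a nonclassical chain read by natural killer cell receptors. NLRC5 is the class I transactivator and acts with RFX proteins on the W/S, X and Y elements upstream of class I genes, while interferon acts through the interferon-stimulated response element (ISRE) and NF-kappa B through kappa B sites. CD74 is the invariant chain of class II molecules, which present peptides from outside the cell, and it is also a receptor of the cytokine MIF.

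H2-K1, H2-D1, H2-T23, Tap1, Tap2 and Tapbp lie in the major histocompatibility complex on chromosome 17 of GRCm38, in RefSeq positions. H2-K1 is on the minus strand from 33996012 to 34000619 and H2-D1 on the plus strand from 35263094 to 35267497. H2-T23 is on the minus strand from 36029977 to 36032701. Tapbp (33919478 to 33929290), Tap1 (34187556 to 34197225) and Tap2 (34204479 to 34216321) are on the plus strand. Tap1 and Psmb9 overlap on opposite strands, so that some of their reads could not be told apart if strand was not used in counting. The same holds for H2-T23 with A930015D03Rik, Tap2 with Gm15821 and Gm20496, Tapbp with Gm19412, B2m with Patl2 and Nlrc5 with 9330175E14Rik, while Zbtb22 overlaps Tapbp on the same strand. B2m is on chromosome 2 (122147687 to 122153082), Erap1 on chromosome 13 (74639573 to 74693205) and Nlrc5 on chromosome 8 (94434335 to 94527272).

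The sequence before the start is shown for the 4 genes of the class I chains, since these chains share promoter elements and yet differed in the comparison of the groups. Each line has 250 bases, 5′ to 3′ on the gene's strand, from RefSeq on GRCm38.p6, with matches to the searched motifs in capitals. They are chr2:122147437-122147686 on the plus strand for B2m, chr17:35262844-35263093 on the plus strand for H2-D1, chr17:34000348-34000597 on the minus strand for H2-K1, which precede the start of a shorter annotated transcript and lie within the full span of the gene, and chr17:36032702-36032951 on the minus strand for H2-T23.
B2m: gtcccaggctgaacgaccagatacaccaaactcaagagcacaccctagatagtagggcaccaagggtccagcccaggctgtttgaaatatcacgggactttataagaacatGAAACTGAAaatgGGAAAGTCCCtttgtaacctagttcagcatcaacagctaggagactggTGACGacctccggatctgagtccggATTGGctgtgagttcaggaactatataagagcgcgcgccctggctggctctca
H2-D1: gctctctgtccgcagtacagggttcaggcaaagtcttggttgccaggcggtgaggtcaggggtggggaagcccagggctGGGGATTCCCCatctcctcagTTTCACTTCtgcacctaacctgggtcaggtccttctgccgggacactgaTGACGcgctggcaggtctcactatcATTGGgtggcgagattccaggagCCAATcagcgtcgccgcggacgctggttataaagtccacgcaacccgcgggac
H2-K1: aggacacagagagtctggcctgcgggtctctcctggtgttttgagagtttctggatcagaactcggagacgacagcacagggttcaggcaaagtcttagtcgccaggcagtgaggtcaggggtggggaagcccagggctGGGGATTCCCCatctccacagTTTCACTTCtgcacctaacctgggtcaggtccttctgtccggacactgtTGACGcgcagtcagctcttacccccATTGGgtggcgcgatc
H2-T23: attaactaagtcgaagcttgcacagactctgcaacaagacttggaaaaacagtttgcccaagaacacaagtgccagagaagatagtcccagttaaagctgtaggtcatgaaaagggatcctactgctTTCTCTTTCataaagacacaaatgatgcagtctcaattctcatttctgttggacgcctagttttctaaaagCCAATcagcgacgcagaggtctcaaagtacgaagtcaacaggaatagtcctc
The motifs, read on both strands, were the ISRE core GAAANNGAA and its other spacing GAANNGAAA, the STAT site TTCNNNGAA, the Y box core CCAAT, the X2 box core TGACG and the kappa B site. The other spacing was added after the sequences had been read, and it may overlap the ISRE core in other promoters. In H2-D1 and H2-K1 the capitals are, in order, a kappa B site, the ISRE core in the other spacing, the X2 core and the Y core. A second Y core follows in both genes, in H2-K1 just past the printed bases. B2m has the ISRE core before the kappa B site, and H2-T23 has an ISRE core and a Y core with no match to the other motifs in these bases. The X2 core and the Y core start 25 bases apart in B2m, H2-D1 and H2-K1. H2-D1 and H2-K1 had 170 of 190 aligned bases in common (89.5%), against 36.7% to 53.0% for other pairs of the genes with a window.

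RefSeq windows of 300 bases around the start were used for 7 of the genes. The ISRE core was in those of B2m, Erap1 and H2-T23 and in 8.56% of all 32851 windows, and the other spacing was in those of H2-D1 and H2-K1 and in 7.52% of all. The Y core was in the windows of all these genes but Erap1 (37.4% of all windows), the X2 core in those of B2m, H2-D1, H2-K1 and Tap1 (20.8%), and the kappa B site in those of B2m, H2-D1 and H2-K1 (8.46%). The STAT site was in 0 of the 7 windows and in 8.30% of all. These are matches of letters, not sites shown to be bound.

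Reads assigned to genes numbered 16003990 to 21786618 per library. Sgf29 mRNA measured 36.2 to 40.4 CPM (counts scaled to a common library size) with sgCtrl and 12.6 to 17.4 CPM with sgSgf29, a log2 fold change of -1.43 (SE 0.11, adjusted p = 2.9e-10). The scaling is TMM, a trimmed mean of the log ratios between libraries, and adjusted p-values come from edgeR's quasi-likelihood test over the 11169 genes with enough counts. Because TMM scales to genes that on balance do not move, a fold change here is relative to the typical gene, and scaling to library size alone shifted the median log2 fold change from 0.01 to 0.24. With that scaling 30% of all calls were lower, against 49.3% with TMM.

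Class I presentation mRNA was higher in the sgSgf29 cells for part of the pathway, with H2-T23, H2-D1, Tapbp, B2m and Erap1 called higher, H2-K1, Tap1 and Tap2 not called, and Cd74 called higher from a very low level. Of the 10 genes, 9 had enough counts to be tested. Of these, 6 were called higher and 0 lower, where 35.4% of all tested genes were called higher and 34.4% lower. In 6 of the 9 every sgSgf29 library lay above every sgCtrl library, as in 37.0% of all tested genes, and H2-T23 and Cd74 rose by 2-fold or more, as did 10.1% of all tested genes. The median log2 fold change of the 9 was 0.40, beside 0.01 over all tested genes. In bulk RNA, fewer cells of a type and less RNA per cell cannot be told apart. Scaled to library size alone, all 9 were called higher, including H2-K1 (log2 fold change 0.17, adjusted p = 0.018), Tap1 (0.32, adjusted p = 0.0013) and Tap2 (0.29, adjusted p = 0.00035).

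**Figure D1:**
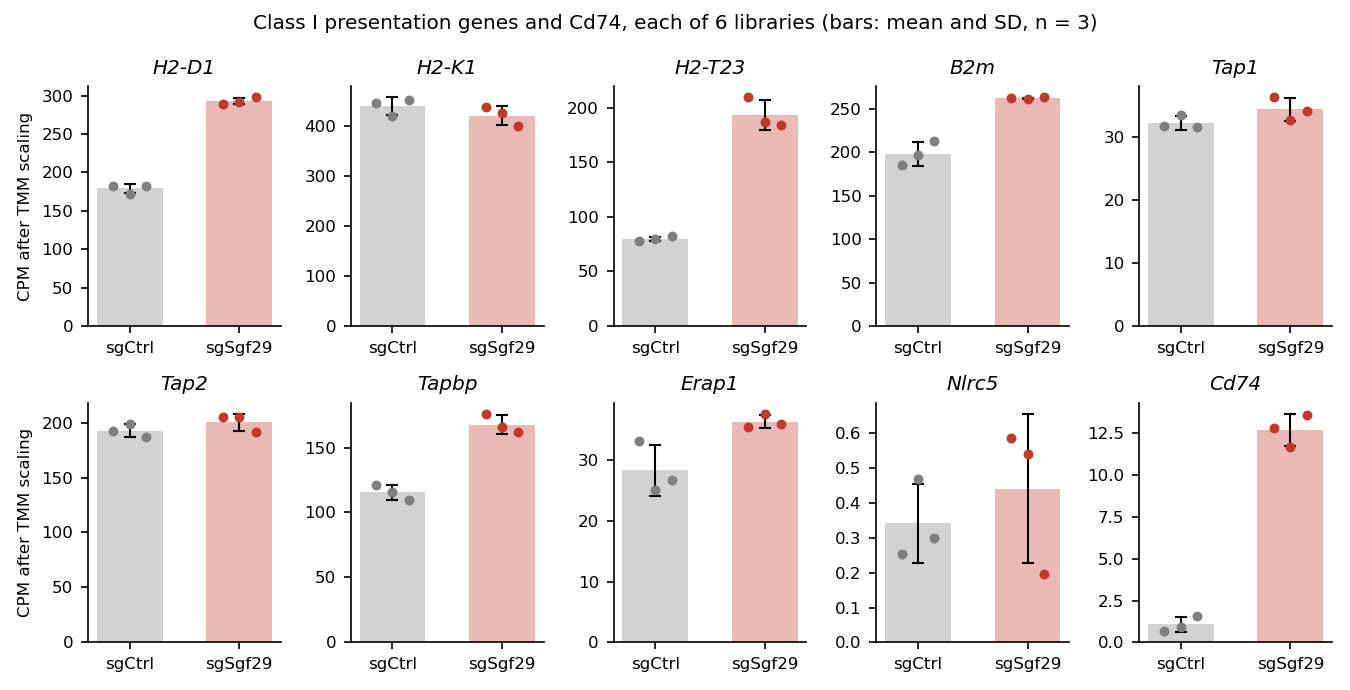
CPM of the 10 genes in the 3 sgCtrl and 3 sgSgf29 libraries (points) with the group means (bars). The groups are apart for H2-D1, H2-T23, B2m, Tapbp, Erap1 and Cd74 and overlap for H2-K1, Tap1, Tap2 and Nlrc5.

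Of H2-D1, H2-K1 and H2-T23, H2-T23 rose most. H2-T23 mRNA measured 77.7, 79.5 and 82.0 CPM with sgCtrl and 209.4, 186.6 and 184.2 CPM with sgSgf29. Every sgSgf29 library was above every sgCtrl library. The log2 fold change was 1.28 (SE 0.07), or 2.42-fold, with an adjusted p of 1.3e-12, and 6.94% of the tested genes had a larger one. H2-D1 measured 182.7, 171.9 and 182.9 CPM with sgCtrl and 289.1, 292.3 and 297.7 CPM with sgSgf29. These groups did not overlap either, and the spread within each was small beside the difference. H2-D1 rose 1.64-fold (log2 fold change 0.71, SE 0.06, adjusted p = 2.5e-09).

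H2-K1, the other classical heavy chain, was not called. It measured 445.4, 418.6 and 452.0 CPM with sgCtrl and 436.4, 424.5 and 399.0 CPM with sgSgf29. The groups overlapped, with the highest and the lowest library of the 6 in sgCtrl and sgSgf29, respectively. The log2 fold change was -0.06, with a 95% interval of -0.19 to 0.06 (adjusted p = 0.4). This interval lies below the log2 fold change of 0.71 of H2-D1, whose upstream sequence is the most like that of H2-K1 above. Few exact stretches of these transcripts were shared with other transcripts: 1.35% of the 150-base windows of H2-D1 transcripts were also found in H2-Q1, 0.331% of those of H2-T23 in Gm7030, and 0 of those of H2-K1 in any other gene. This comparison does not cover reads aligned with mismatches. Nor does it cover genes on the opposite strand, such as A930015D03Rik for H2-T23.

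B2m, the light chain shared by all class I molecules, rose by less. B2m measured 185.5, 196.9 and 212.8 CPM with sgCtrl and 262.2, 262.1 and 263.3 CPM with sgSgf29. The sgSgf29 libraries were nearly equal to each other and all above the sgCtrl libraries. The log2 fold change was 0.40 (SE 0.06), or 1.32-fold, with an adjusted p of 1.3e-05. H2-D1, H2-K1, H2-T23 and B2m together took 0.0809% to 0.0854% of the gene counts in the sgCtrl libraries and 0.125% to 0.128% in the sgSgf29 libraries. This share is scaled to library size alone, without TMM, and so differs by more than the CPM values of the same genes.

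The balance of each heavy chain to B2m was compared within libraries, as the log2 ratio of counts. For H2-T23 over B2m it went from -1.31 ± 0.0608 (SD, n = 3) to -0.44 ± 0.103 (SD, n = 3), and for H2-D1 over B2m from -0.15 ± 0.108 to 0.16 ± 0.0182. For H2-K1 over B2m it went the other way, from 1.15 ± 0.102 to 0.68 ± 0.0696. In all of these ratios the groups did not overlap, and the exact two-sided permutation test gave p = 0.1, the smallest that 3 libraries against 3 allow, or 0.114 adjusted over the 8 ratios compared. The design can therefore not pass a threshold of 0.05 for a ratio.

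**Figure D2:**
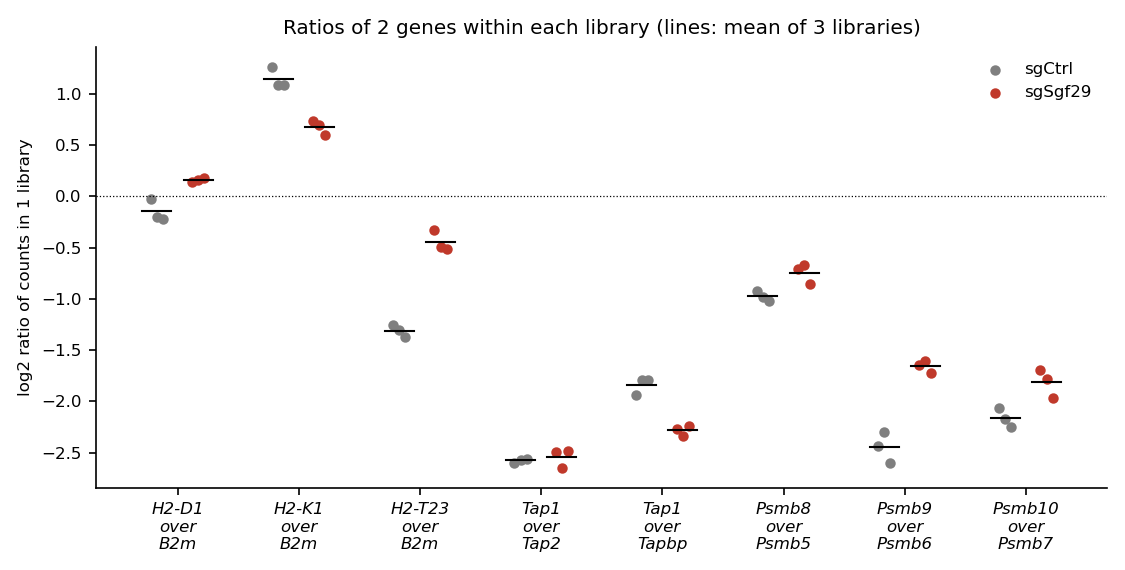
Log2 ratios of counts within each library for 8 pairs of genes, as points for the 3 sgCtrl and 3 sgSgf29 libraries with group means. The groups overlap for Tap1 over Tap2 and do not overlap for the other pairs, with H2-K1 over B2m and Tap1 over Tapbp lower and H2-T23 over B2m higher in sgSgf29.

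Neither subunit of the peptide transporter was called. Tap1 measured 31.7, 33.5 and 31.6 CPM with sgCtrl and 36.3, 32.7 and 34.3 CPM with sgSgf29 (log2 fold change 0.09, 95% interval -0.06 to 0.25, adjusted p = 0.31). Tap2 measured 192.3, 198.9 and 186.8 CPM with sgCtrl and 204.6, 204.7 and 191.5 CPM with sgSgf29 (log2 fold change 0.06, 95% interval -0.07 to 0.18, adjusted p = 0.43). The groups overlapped for both genes, and both intervals lie below the log2 fold changes of B2m and Tapbp. The log2 ratio of Tap1 over Tap2 was -2.58 ± 0.0200 (SD, n = 3) in sgCtrl and -2.54 ± 0.0916 (SD, n = 3) in sgSgf29 (exact permutation test, two-sided p = 0.5).

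Tapbp, which encodes the tapasin that bridges the transporter to the empty heavy chain, did rise. It measured 121.2, 116.0 and 109.4 CPM with sgCtrl and 175.9, 165.4 and 161.6 CPM with sgSgf29. The groups did not overlap. The log2 fold change was 0.54 (SE 0.06), or 1.45-fold, with an adjusted p of 3e-07. Erap1, the aminopeptidase that trims peptides to length, measured 33.1, 25.2 and 26.7 CPM with sgCtrl and 35.5, 37.6 and 36.0 CPM with sgSgf29. The groups did not overlap, although the highest sgCtrl library came close to the lowest sgSgf29 library, and Erap1 overlaps Cast on the opposite strand. Its log2 fold change was 0.36 (SE 0.09), or 1.29-fold, with an adjusted p of 0.0017.

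Nlrc5, the class I transactivator, was near the limit of detection in both groups and was not tested. It had 4, 7 and 6 counts in the sgCtrl libraries and 10, 12 and 4 counts in the sgSgf29 libraries. The groups overlapped, with the lowest count in a library of each. The 17 counts of the sgCtrl group amount to 0.335 CPM (95% Poisson interval 0.195 to 0.537) and the 26 counts of the sgSgf29 group to 0.435 CPM (0.284 to 0.638), where the intervals cover counting error only. No difference of Nlrc5 was detected, and a small one could not be detected at this depth. In a fit with no filter on low counts its log2 fold change was 0.37 (SE 0.64, adjusted p = 0.63).

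Levels can be compared between genes only per length, here as CPM per kilobase of all exons of a gene, which lowers the level of genes with many alternative transcripts. In sgCtrl the order was B2m (230.7), H2-K1 (149.3), H2-D1 (69.5), Tap2 (50.9), Tapbp (31.8), H2-T23 (27.6), Tap1 (5.89), Erap1 (3.89), Cd74 (0.642) and Nlrc5 (0.0401). In sgSgf29 it was B2m (305.3), H2-K1 (142.9), H2-D1 (113.6), H2-T23 (66.9), Tap2 (53.0), Tapbp (46.2), Cd74 (7.55), Tap1 (6.29), Erap1 (5.0) and Nlrc5 (0.0519). H2-T23 and Cd74 thus each stood 2 places higher in the sgSgf29 order. Neighbours whose libraries overlapped numbered 0 in either order. Tap2 was above Tap1 in both orders, although their proteins form one transporter.

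**Figure D3:**
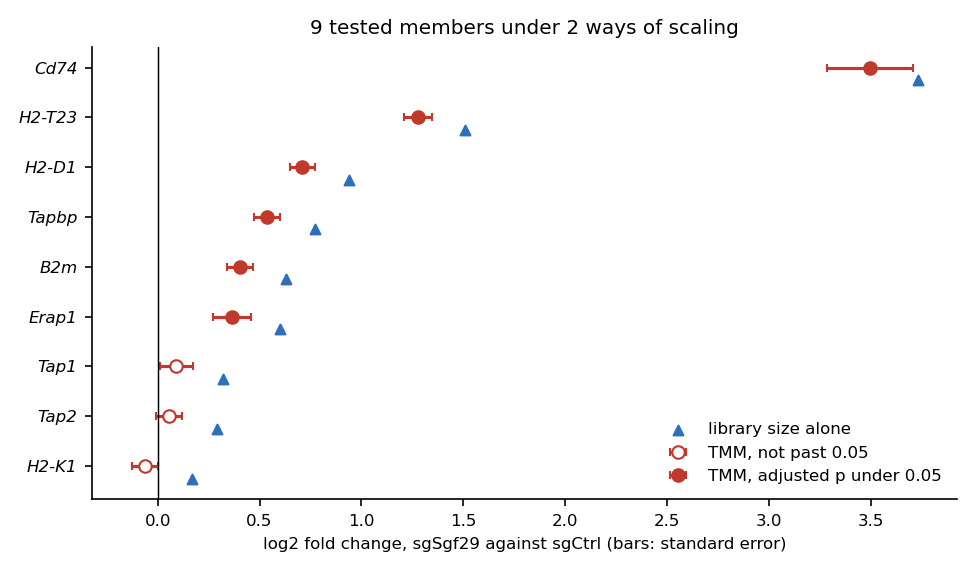
Log2 fold change of the 9 tested genes, sgSgf29 minus sgCtrl, from edgeR, with bars from the standard error. Cd74 stands at 3.50 and H2-T23 at 1.28, and the 95% intervals of H2-K1, Tap1 and Tap2 include 0.

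Cd74, on the plus strand of chromosome 18 of GRCm38 (60803849 to 60812652), had the largest fold change of the 9, from a low level. It had 11, 14 and 32 counts in the sgCtrl libraries and 218, 259 and 278 counts in the sgSgf29 libraries. These correspond to 0.699, 0.937 and 1.6 CPM and to 12.8, 11.7 and 13.6 CPM, with no overlap. The log2 fold change was 3.50 (SE 0.21), or 11.3-fold, with an adjusted p of 1e-11, and 0.698% of the tested genes had a larger one. Even in the sgSgf29 libraries Cd74 was at a small fraction of the level of B2m per length.

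The class II chains that CD74 assembles with were not detected with it. H2-Ab1 and Ciita, the class II transactivator, had 0 counts in all 6 libraries, H2-Aa had 2 counts in all and H2-Eb1 had 1, all in sgSgf29 libraries. A count of 0 allows up to 0.0592 CPM over the sgCtrl group and 0.0502 CPM over the sgSgf29 group, at 3 counts, for counting error only. Other genes of the class II route were present. Of the 10 tested genes outside Cd74, 6 were called higher, 1 lower and 3 not, with a median log2 fold change of 0.66, beside 35.4% of all tested genes called higher. Ctss and March1 reached the minimum count in every library only with sgSgf29. They had to be higher to be tested, so the count and the median are no support for a direction of the list. Ctss, the protease that cuts the invariant chain, went from 0.243 to 6.98 CPM (log2 fold change 4.85, adjusted p = 6.1e-11), and Sppl2a, which cleaves its membrane stub, rose by 0.83 on the log2 scale (adjusted p = 2.7e-08). March1, a ubiquitin ligase that removes class II from the surface, went from 0.428 to 8.96 CPM (4.36, adjusted p = 3.6e-11). H2-Oa, a chain of the DO inhibitor, rose by 1.86 (adjusted p = 1e-11) and H2-DMa, a chain of the DM peptide editor, by 0.49 (adjusted p = 0.0011). Of the partner chains of H2-DMa, H2-DMb1 was not called (-0.02, adjusted p = 0.89, with a sign that changed with the scaling). H2-DMb2 went from 1.30 to 4.07 CPM (1.65, adjusted p = 6.9e-06), while H2-Ob, the partner of H2-Oa, was not called (0.46, adjusted p = 0.14). Both were named after their values were seen.

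**Figure D4:**
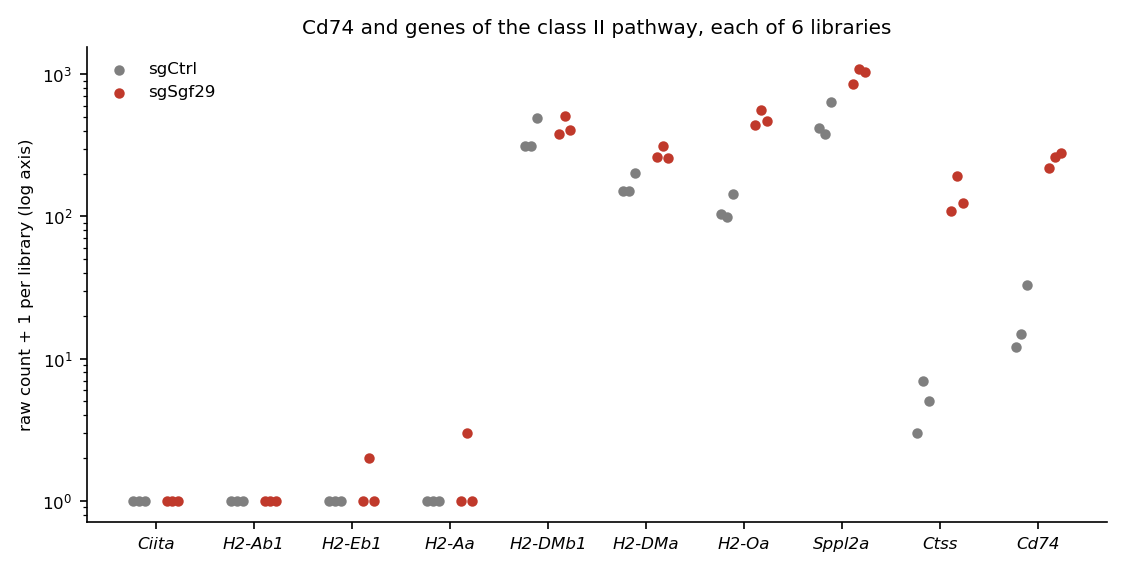
Counts per library of Cd74, the class II chains, Ciita and other genes of the class II route in the 3 sgCtrl and 3 sgSgf29 libraries. Cd74 stands at 11 to 32 counts in sgCtrl and at 218 to 278 in sgSgf29, while H2-Aa, H2-Ab1, H2-Eb1 and Ciita stay between 0 and 2 counts.

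For MIF, the ligand of CD74, and the partners of the receptor, calls in each direction were near the shares over all tested genes. Of 5 tested genes, 2 were called higher, 2 lower and 1 not, with a median log2 fold change of -0.16. Over all tested genes, 35.4% were called higher and 34.4% lower. Mif went from 1616 ± 64.9 CPM (SD, n = 3) to 809.4 ± 39.4 CPM (SD, n = 3), a log2 fold change of -1.0 (adjusted p = 1.5e-10). Cd44, the signalling partner of CD74, rose by 1.11 on the log2 scale (adjusted p = 1.2e-11), and Cxcr2, a chemokine receptor that also binds MIF, by 2.40 (adjusted p = 5.5e-16). Cxcr4 was called lower by a small margin (-0.16, adjusted p = 0.036), a call that was lost or turned with other scalings and when single libraries were left out.

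Most of the other class I heavy chain genes that could be tested were called higher, as H2-T23 and H2-D1 were. Of the 18 listed, 7 had 0 counts in all libraries, H2-Q7 among them, and 8 were tested, of which 7 were called higher and 1 lower, with a median log2 fold change of 0.86, beside 35.4% of all tested genes called higher. Fcgrt, whose chain carries immunoglobulin G rather than peptide, went from 2.28 to 42.4 CPM (log2 fold change 4.23, adjusted p = 1e-14). Cd1d1, which presents lipids, went from 101.3 to 238.4 CPM (1.24, adjusted p = 2.5e-11). H2-T24 rose by 1.29 (adjusted p = 2.1e-07), H2-M3, which presents formylated peptides, by 0.88 (adjusted p = 2.2e-06) and H2-T22 by 0.43 (adjusted p = 3.6e-05). The gene called lower was H2-T10 (-0.55, adjusted p = 0.012), named after its value was seen, which has sequence in common with H2-T22.

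The list of loading and trimming held chaperones and also peptidases that cut peptides in the cytosol. All 11 were tested, of which 1 was called higher, 6 lower and 4 not, beside 34.4% of all tested genes called lower. The median log2 fold change was -0.24. Calr, which encodes the chaperone of the loading complex, went from 1523 to 918.6 CPM (-0.73, adjusted p = 3.7e-08). Canx (-0.24, adjusted p = 0.0026) and Pdia3 (-0.32, adjusted p = 0.00022), a chaperone and an oxidoreductase of general protein folding, were also lower, but scaled to library size alone neither was called. Thop1 (-1.11, adjusted p = 6e-10) and Lap3 (-0.72, adjusted p = 2.9e-07), cytosolic peptidases, fell as well. Tapbpl, a peptide editor related to tapasin, rose from 16.5 to 31.2 CPM (0.92, adjusted p = 1.8e-08).

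Of the immunoproteasome and its activator, 3 of 6 genes were called higher, 1 lower and 2 not, with a median of 0.13, beside 35.4% of all tested genes called higher and 34.4% lower. All 3 constitutive catalytic subunits were called lower: Psmb5 (-0.39), Psmb6 (-0.53) and Psmb7 (-0.27), with adjusted p-values of 4.6e-05, 8.7e-07 and 0.0019, although Psmb7 was not called when scaled to library size alone. Psmb9 was higher by 0.26 (adjusted p = 0.0063), with the overlap with Tap1 named above, and Psme2 and Psme2b by 0.17 (adjusted p = 0.018) and 0.37 (adjusted p = 0.0034). Psmb10 was not called (0.08, adjusted p = 0.3), and Psmb8 was called lower by 0.16 (log2 fold change -0.16, adjusted p = 0.035), a call lost or turned under other settings. Within libraries the log2 ratio of each immunosubunit to its constitutive partner was higher in sgSgf29, by 0.79 for Psmb9 over Psmb6, 0.35 for Psmb10 over Psmb7 and 0.23 for Psmb8 over Psmb5. The groups did not overlap for these ratios (exact permutation test, two-sided p = 0.1, the smallest possible).

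More regulators of the MHC genes were called higher than lower, while Nlrc5 and Ciita were at or near 0. Of 15 tested, 9 were called higher, 3 lower and 3 not, with a median log2 fold change of 0.34, beside 35.4% of all tested genes called higher. The list holds both activating and silencing factors, so this count gives no direction for the MHC genes. Irf2 (1.07, adjusted p = 8.5e-10) and Irf1 (0.68, adjusted p = 4.2e-08) bind the ISRE. Nfkb1, a subunit of NF-kappa B, rose by 0.77 (adjusted p = 1.3e-09), and Rfx5, the X box factor, by 0.52 (adjusted p = 5.8e-05). Ezh2, the methyltransferase of the Polycomb complex that silences MHC genes in some tumours, fell from 100.1 to 72.2 CPM (-0.47, adjusted p = 2.5e-06). Of the other core subunits of that complex, Suz12 was lower (-0.29, adjusted p = 0.00036) and Eed was higher (0.36, adjusted p = 0.00037), both named after their values were seen. Irf8 was called higher at the threshold (0.59, adjusted p = 0.045), a call that DESeq2 and most fits without 1 library did not make.

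Interferon is the main inducer of class I genes. Of 20 listed ligand, receptor and signalling genes, 7 had 0 counts in all libraries, all of them ligands. Of the 13 tested, 12 were called higher and 1 lower, with a median log2 fold change of 0.95, beside 35.4% of all tested genes called higher. Usp18 alone among them entered the test through the sgSgf29 libraries only, so its call is no support for a direction. Ifngr1, the ligand-binding chain of the interferon gamma receptor, was the one that fell, from 532.4 to 279.4 CPM (-0.93, adjusted p = 6.6e-11). Its partner Ifngr2 rose by 1.32 (adjusted p = 2.9e-12), and Ifnar1, a chain of the type I receptor, by 0.95 (adjusted p = 1.1e-10). Jak2 (1.87, adjusted p = 1.7e-14) and Irf9 (1.02, adjusted p = 3.1e-07) carry the signal and rose, as did the feedback inhibitors Socs1 (1.90, adjusted p = 1.8e-13) and Socs3 (2.87, adjusted p = 9.8e-16).

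Of 30 listed interferon-stimulated genes outside presentation, 17 were tested, of which 14 were called higher, 2 lower and 1 not. The other 13 had too few counts, with Ifi44, Iigp1 and Cxcl9 at 0 in all libraries. Of the 17, 6 (Isg15, Oas2, Oas3, Rsad2, Cxcl10 and Xaf1, named after their values were seen) reached the minimum count in every library with sgSgf29 but not with sgCtrl, so that they had to be higher to be tested, and the count is no support for a direction of the list. Irf7, an amplifier of the interferon response, went from 1.61 to 13.3 CPM (3.04, adjusted p = 3.2e-12), and Zbp1, a nucleic acid sensor, from 7.91 to 43.3 CPM (2.45, adjusted p = 3.5e-13). Gbp7, a guanylate-binding protein, rose by 1.97 (adjusted p = 1.1e-10) and Ddx58, which encodes the RNA sensor RIG-I, by 1.79 (adjusted p = 1.4e-09). Over all of the pathway lists, 94 genes were tested, of which 56 were called higher, 20 lower and 18 not, beside 35.4% of all tested genes called higher and 34.4% lower. Of the 94, 9 entered the test through the sgSgf29 libraries only, and their calls are no support for a direction.

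**Figure D5:**
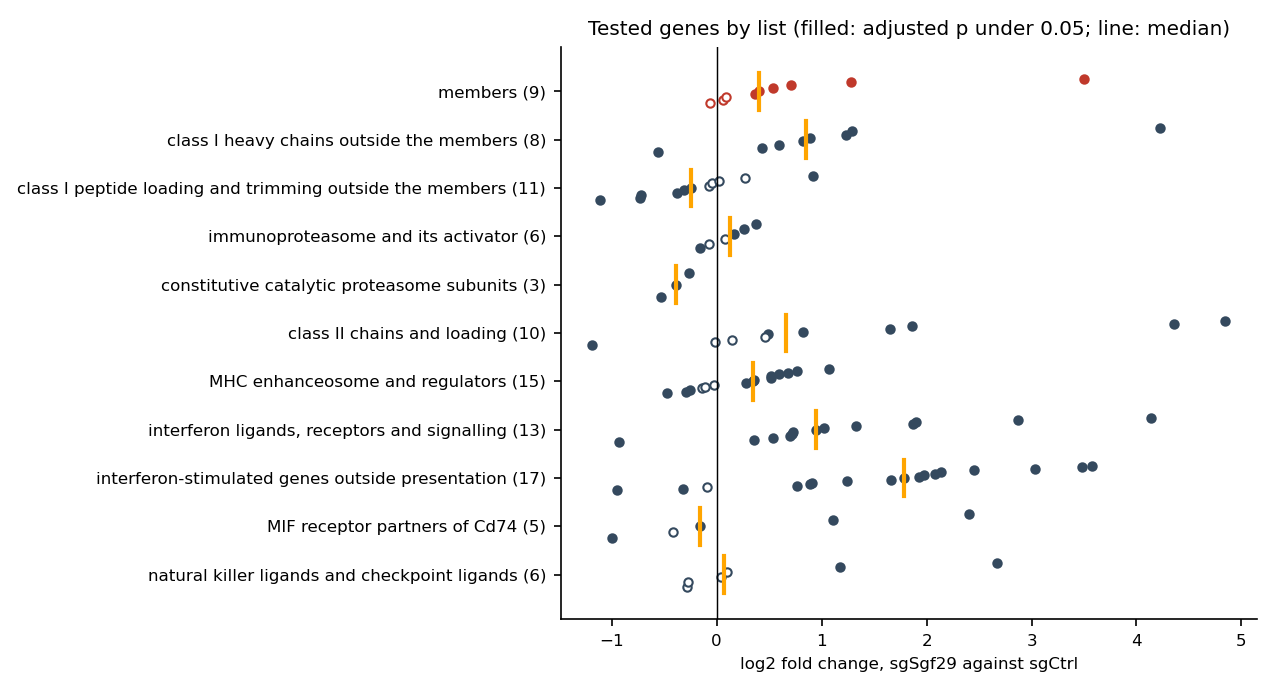
Log2 fold change, sgSgf29 minus sgCtrl, of each tested gene of the pathway lists (points) with the median of each list (bar). The median is 1.79 for the interferon-stimulated genes, of which 6 of 17 entered the test through sgSgf29 only, 0.95 for interferon signalling and 0.86 for the other heavy chains, and -0.24 for loading and trimming.

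On chromosome 17 the genes around the class I chains were called at near the shares of all tested genes (35.4% higher and 34.4% lower). In the stretch from H2-K1 to H2-T23, chosen after the values were seen, 82 genes were tested, of which 26 were called higher, 26 lower and 30 not, with a median log2 fold change of 0.03, beside 0.01 over all tested genes. H2-K1, at one end of it, was not called, and H2-T23, at the other, rose by 1.28.

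The labelled cell type was checked by 10 genes of leukemia and myeloid identity, of which 4 were called higher, 4 lower and 1 not, with Cd34 at 0, beside 35.4% of all tested genes called higher and 34.4% lower. Their summed CPM was 14686 to 16065 with sgCtrl and 10692 to 11017 with sgSgf29, and most of it was Elane, a neutrophil granule protease, at 14238 CPM and 9302 CPM on average. Itgam, a surface integrin of myeloid cells, went from 136.5 to 531.8 CPM, while Mpo, another granule gene, went from 191.5 to 53.7 CPM and Hoxa9, a target of the MLL fusion, from 164.8 to 63.8 CPM. Meis1 of the same list, named after its value was seen, rose from 15.5 to 21.3 CPM (0.46, adjusted p = 0.00034). Markers of cells that express class I or class II genes strongly were read in the same libraries. The summed CPM of the 6 B cell markers ranged from 0.699 to 1.74 in sgCtrl and from 1.03 to 2.07 in sgSgf29, with Ms4a1 at 0 and Vpreb1, the only one tested, called higher (1.10, adjusted p = 0.045). The T and NK cell markers summed to 0.953 to 1.34 CPM and 0.782 to 1.05 CPM, with Cd3e, Cd4 and Cd8a at 0. The dendritic cell markers summed to 1.55 to 2.92 CPM and 4.73 to 5.92 CPM, with Cd209a and Siglech at 0 and Itgax (2.98) and Flt3 (0.86) called higher. Of the macrophage and monocyte markers 7 of 11 were tested, of which 5 were called higher and 1 lower, and their sum went from a range of 1785 to 1925 CPM to 2298 to 2449 CPM, with Mrc1, C1qa and C1qb at 0. Vpreb1, Itgax and the macrophage marker Fcgr1 reached the minimum count in every library with sgSgf29 but not with sgCtrl. They had to be higher to be tested, so their calls are no support for a direction. Adgre1 went from 1.17 to 24.5 CPM and Lyz2 from 335.4 to 1157 CPM. Ccr2 went from 7.62 to 69.1 CPM and Cd14 from 15.4 to 57.5 CPM, both named after their values were seen. Ly6c2, the only macrophage and monocyte marker called lower, went from 1490 to 1035 CPM, and Csf1r was not called. Apart from Fcgr1, more of the tested macrophage and monocyte markers were thus called higher than lower. The part of the cell type markers in the results for Cd74, H2-T23 and the other genes was not tested.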

How the data were processed

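Messenger RNA of 3 sgCtrl and 3 sgSgf29 samples was analysed from 1 deposited table of raw counts, made by the authors. Per the paper and the submitters' processing notes, reads were aligned with STAR (2.6.0a in the notes) to GRCm38. The paper names featureCounts, but the table has bookkeeping entries such as those of htseq-count. For the annotation and the strand setting of the counting, nothing is given in the sources used here. The bookkeeping entries (25.8% to 31.4% of a library, reads with several matches among them) were left out. How the reads with several matches would have been spread over genes was not tested. Genes were filtered by filterByExpr at its minimum count of 10 and scaled by TMM. The test was the quasi-likelihood fit in edgeR 4.0.16 (R 4.3.3), with Benjamini-Hochberg adjustment over 11169 genes and calls at an adjusted p under 0.05. SD values are of CPM after scaling. The 95% intervals of fold changes come from the standard error. Log2 ratios of counts had 0.5 added to each count and were compared by exact two-sided permutation tests (scipy 1.17.1). Pairs of upstream sequences were aligned with Biopython 1.88. Alternatives were RLE, upper-quartile and library size scaling, other filters, DESeq2 1.42.0, limma-voom (limma 3.58.1), a replicate block and each library left out. The procedure was tested on simulated data. Replicates of a group differed beyond sampling noise, with a chi-square of 4.60 to 16.0 per degree of freedom. Named pathway genes were a fixed set per list plus up to 4 called genes with the smallest adjusted p. The genes and lists were chosen with earlier results of these data known. Protein sequences were not used here. The values of 1 gene of the lists are not reported here.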

Additional observations from a re-analysis of the deposited data

How the results depend on the processing

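The calls of H2-D1, H2-T23, B2m, Tapbp, Erap1 and Cd74 held under every alternative run, and those of H2-K1, Tap1 and Tap2 changed only with scaling to library size alone. Of 826 alternative log2 fold changes of 59 named genes, 798 kept direction and side of the threshold. With library size alone, the presentation genes called higher went from 6 to 9 and all genes called higher from 3957 to 5575. With that scaling, 2385 genes and 10 genes of the pathway lists were called lower, H2-K1 turned to a log2 fold change of 0.17, Psmb8 to 0.07, H2-DMb1 to 0.22 and Cxcr4 to 0.07. Why this scaling differs from TMM was not tested. H2-DMb1 was 0.01 with upper-quartile scaling and -0.09 to 0.09 with 1 library left out, where it turned to 0.09 without sgCtrl replicate 3 and to 0.05 without sgSgf29 replicate 3. Irf8 had a log2 fold change of 0.59 with DESeq2, not called, and 0.31 without sgCtrl replicate 2, and its call was also lost without sgCtrl replicate 3 and without sgSgf29 replicate 1 or 2. The calls of Psmb8 (without sgCtrl replicate 1 or 3, or sgSgf29 replicate 2 or 3) and of Cxcr4 (without sgCtrl replicate 3 or any sgSgf29 replicate) were lost at log2 fold changes of -0.14 to -0.13 and -0.16 to -0.10. With the replicate block, 6 of the presentation genes were called higher and 0 lower, and 4059 of all genes higher and 3937 lower. Correlations of same-numbered deviations were weak at 0.03, 0.08 and 0.12, and those of differently numbered ones ran from -0.12 to 0.04. Whether the replicate numbers pair the samples cannot be told from these values, and the block changed no call of a named gene. Depth limits Nlrc5, Ciita and the class II chains, which had 0 to 12 counts per library.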

Other observations

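Ligands through which leukemia cells meet natural killer cells and T cells, other than class I molecules, were also measured. Of 6 tested, 2 were called higher by edgeR and 4 not, near the 35.4% of all tested genes called higher, with a median log2 fold change of 0.07. The 4 not called were the natural killer ligands Raet1d (0.10), Raet1e (0.04), H60b (-0.28) and Ulbp1 (-0.29), named after their values were seen. Cd80, a costimulatory ligand of T cells, went from 1.86 ± 0.365 CPM (SD, n = 3) to 12.1 ± 0.559 CPM (SD, n = 3), a log2 fold change of 2.67 (adjusted p = 2.9e-11). Cd274, which encodes the checkpoint ligand PD-L1, went from 8.55 ± 0.307 CPM to 19.4 ± 1.27 CPM (1.18, adjusted p = 9.2e-09).

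The genes whose 6 log2 values, each less the sgCtrl mean, lay nearest to those of B2m were Irak4 (Euclidean distance 0.04), Xrn1 (0.05) and Sp110 (0.05). Nearest to Cd74 were C3ar1 (0.30), Rbfox2 (0.39) and Gm9733 (0.45), with log2 fold changes of 3.46, 3.68 and 3.55. The distances are over 6 libraries and say nothing of shared control.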
